A study of Homo sapiens with 12 samples.

Results

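The 39 genes described here are targets of the hypoxia-inducible factors (HIFs) and enzymes of glycolysis, chosen by name from a list of such genes. They were chosen with earlier results of these data known. All 39 were among the 18648 genes tested out of 57773 in the deposited table, a gene being tested when 3 or more of the 12 libraries gave it a value of 1 or higher. RNA was sequenced from A498, a human kidney carcinoma line, after transfection with an siRNA against ELOVL2 (siELOVL2), an siRNA against ELOVL5 (siELOVL5), both siRNAs (the double knockdown), or a control siRNA. Each group had 3 biological replicates, and all groups shared the line, the standard culture and a transfection. The labels tell no batches apart and give no oxygen level or time of harvest. ELOVL2 and ELOVL5 encode elongases of polyunsaturated fatty acids. The work rests on 1 cell line and on siRNAs whose sequences and number per gene the labels do not give. P-values therefore measure the spread between replicate cultures of A498 only.

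HIFs are transcription factors whose alpha subunits are marked for destruction by prolyl hydroxylases when oxygen is present, through the ubiquitin ligase component VHL. A498 cells are known to lack functional VHL, as most clear cell kidney carcinomas do, so that HIF-alpha protein can persist in normal oxygen. HIF-alpha proteins were not measured here, and which of the genes described depend on them in this line was not tested. Not all were high in control cells, where CA9, ANKRD37 and NDUFA4L2 were low, so their levels are not read as a measure of HIF activity. Glycolysis splits glucose into pyruvate, and many of its enzymes are HIF targets, along with genes for glucose import, lactate formation and export, angiogenesis, collagen modification and mitochondrial turnover.

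The values are read counts that the authors had quantile-normalized, called normalized counts below. That step gives every library the same set of values, with a total of 8.525 M, and the depth estimated before it was 6.7 to 10.7 M reads. Both siRNAs lowered their targets. ELOVL2 stood at 9.32% of control in siELOVL2 cells and at 8.87% in the double knockdown, and ELOVL5 at 7.48% of control in siELOVL5 cells and at 9.03% in the double knockdown. Of the renal carcinoma markers PAX8, PAX2, KRT8, KRT18, KRT19 and VIM, all were present in every library, with PAX8, a kidney lineage factor, between 511 and 676.5 normalized counts. Their sum was 25790 to 26670 in siELOVL2, 23070 to 29280 in siELOVL5 and 24190 to 26870 in double-knockdown libraries, against 29160 to 32300 in control. VIM, the intermediate filament vimentin, stood at 71%, 87.5% and 67.5% of control after siELOVL2, siELOVL5 and both, and the keratin genes KRT19 at 77%, 56% and 57.6% and KRT8 at 122%, 89.1% and 122%. The leukocyte genes PTPRC, CD3E, CD14 and LYZ summed to between 1.67 and 9.67 normalized counts per library, with CD3E at 0 throughout, and the endothelial genes CDH5, VWF and KDR to at most 7.17. The fibroblast and pericyte list summed to between 417 and 608, carried by COL1A1 and ACTA2, while COL1A2 and DCN were near 0. COL1A1 stood at 72.6% of control in both groups that received the ELOVL2 siRNA, and the part of these marker differences in the results was not tested. Mitochondrial transcripts held 1.39% to 1.59% of the total in 11 libraries and 1.17% in siELOVL5 replicate 3.

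That library, siELOVL5 replicate 3, stood apart from the rest. Among the 39 genes it was above all 11 other libraries for 16 (41%) and below all of them for 10 (25.6%), whereas it was the highest for 15.6% and the lowest for 18.4% of all tested genes. Relative to the mean of the other siELOVL5 libraries, 11 of the 39 genes (28.2%) lay at least 0.5 higher on the log2 scale and 1 (2.56%, PGAM1) at least 0.5 lower, against 17.5% and 18.3% of all tested genes. ANGPTL4, which encodes a secreted inhibitor of lipoprotein lipase, stood at 750 normalized counts in it and at no more than 196 in any other library. NDRG1, a stress-responsive gene, stood at 19085 against at most 8786 elsewhere, and KDM3A, a histone demethylase, at 1645 against at most 790. The secreted peptide gene ADM, the angiogenic factor VEGFA and the hexokinase HK2 were also highest there, at 1714, 7833 and 1127. The genes below all other libraries were steps of glycolysis and the lactate exporter: HK1, GPI, PFKL, TPI1, GAPDH, PGK1, PGAM1, ENO1, PKM and SLC16A3. In double-knockdown replicate 3, 11 of the 39 genes lay at least 0.5 above the mean of the other double-knockdown libraries and 0 as far below, against 15.2% and 15% of tested genes. In siELOVL5 replicate 1, 10 lay as far below the mean of siELOVL5 replicates 2 and 3 and 0 above, against 14.2% and 13.4%. For CA9, CA12, VEGFA, ADM, EGLN3, NDRG1, LOX and MXI1, among others, replicate 1 lay below replicate 3 in every group. HK1 and PKM ran the other way in every group. The main fit leaves such differences between replicate numbers in its estimate of spread. What lay behind these differences was not tested. Many log2 fold changes after siELOVL5 are given below with and without it. Those of LOX, PGAM1, MXI1 and BNIP3L after siELOVL5 are given here. They were -0.17, -0.19, 0.045 and 0.12 with all libraries. They were -0.43, 0.035, -0.16 and -0.04 without siELOVL5 replicate 3. Without it 29 of the 39 genes had a log2 fold change below 0 after siELOVL5, against 22 with it, and the median was -0.05 either way.

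**Figure D1:**
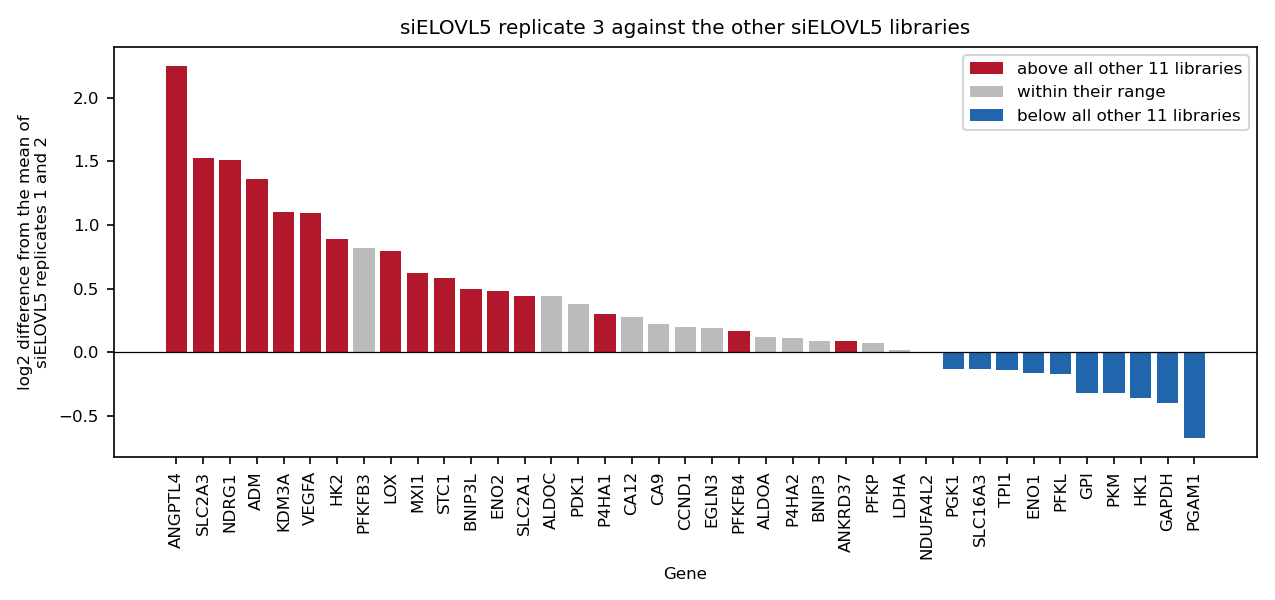
Bars give, for each of the 39 genes, the log2(normalized count + 1) of siELOVL5 replicate 3 minus the mean of siELOVL5 replicates 1 and 2. Red bars mark the 16 genes for which this library was above all 11 other libraries and blue bars the 10 for which it was below them, with ANGPTL4 at the top (2.25) and PGAM1 at the bottom.

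HIFs bind DNA at a short core written ACGTG or GCGTG, so the sequence upstream of the members that moved shows where such letters stand. Windows of 250 bases before each RefSeq transcript start (build GRCh38.p14) were found for 32 of the 39 genes and hold 57 starts. No window was found for SLC2A3, CCND1, VEGFA, NDUFA4L2, NDRG1, STC1 and BNIP3L. ACGTG on either strand occurs in 43.9% of these windows and GCGTG in 40.4%, and at least 1 of the pair in 68.4%, while the shares over the windows of all 35116 starts in the table are 18.5%, 32.2% and 43.2%. Some windows of 1 gene overlap and carry the same matches, as for KDM3A and LOX. By gene, 27 of the 32 have at least 1 match. The members were chosen as HIF targets and glycolytic enzymes, so their higher shares are not a result of these data. A match is a run of letters and not a site of binding. A set of 6 windows is given, chosen after the values were seen. LDHA, ENO2, PFKFB4 and HK2 passed a test, and in siELOVL5 replicate 3 ANGPTL4 and KDM3A stood at 3.83 and 2.08 times the highest of the other libraries. The called genes SLC2A3 and CCND1, and NDRG1 at 2.17 times in that library, are missing for want of a window. The 6 windows are LDHA (chr11:18394313-18394562, plus strand), ENO2 (chr12:6914330-6914579, plus strand), PFKFB4 (chr3:48556804-48557053, minus strand), HK2 (chr2:74833877-74834126, plus strand), KDM3A (chr2:86441121-86441370, plus strand) and ANGPTL4 (chr19:8363905-8364154, plus strand). Each reads 5′ to 3′ in the direction of transcription and ends at the base before the start, and where RefSeq gives several starts the one farthest upstream is shown. Capitals mark ACGTG and GCGTG on either strand, so that CACGT is ACGTG on the other strand, and CACGTG holds a match on each strand.
LDHA: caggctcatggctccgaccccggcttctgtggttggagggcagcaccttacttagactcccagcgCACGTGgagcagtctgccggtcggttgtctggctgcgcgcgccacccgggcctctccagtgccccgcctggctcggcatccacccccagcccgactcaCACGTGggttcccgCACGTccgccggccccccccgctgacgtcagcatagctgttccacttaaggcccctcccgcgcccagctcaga
ENO2: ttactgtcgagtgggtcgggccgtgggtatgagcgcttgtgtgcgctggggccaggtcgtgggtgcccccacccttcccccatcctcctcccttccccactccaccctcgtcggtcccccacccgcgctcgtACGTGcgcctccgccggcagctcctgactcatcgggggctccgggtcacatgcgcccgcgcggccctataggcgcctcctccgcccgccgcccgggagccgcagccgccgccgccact
PFKFB4: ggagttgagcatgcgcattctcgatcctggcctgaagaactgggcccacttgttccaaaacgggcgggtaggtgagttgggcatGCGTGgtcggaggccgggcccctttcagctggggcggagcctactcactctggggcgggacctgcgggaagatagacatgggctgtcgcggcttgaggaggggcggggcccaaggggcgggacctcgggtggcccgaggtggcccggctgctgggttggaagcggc
HK2: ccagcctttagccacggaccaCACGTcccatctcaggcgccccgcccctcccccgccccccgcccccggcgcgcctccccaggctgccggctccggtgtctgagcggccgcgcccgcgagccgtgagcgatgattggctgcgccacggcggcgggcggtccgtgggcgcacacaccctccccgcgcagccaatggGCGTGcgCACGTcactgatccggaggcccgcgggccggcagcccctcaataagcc
KDM3A: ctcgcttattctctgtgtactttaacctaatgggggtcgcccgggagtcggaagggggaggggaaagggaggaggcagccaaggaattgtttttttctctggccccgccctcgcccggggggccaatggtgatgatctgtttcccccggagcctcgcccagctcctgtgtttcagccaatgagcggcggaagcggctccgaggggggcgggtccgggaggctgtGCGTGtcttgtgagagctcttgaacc
ANGPTL4: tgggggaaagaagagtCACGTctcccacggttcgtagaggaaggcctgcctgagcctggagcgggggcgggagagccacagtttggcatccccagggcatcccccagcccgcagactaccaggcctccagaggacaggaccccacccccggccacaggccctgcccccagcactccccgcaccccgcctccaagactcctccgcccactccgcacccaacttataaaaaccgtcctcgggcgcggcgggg
In the windows shown LDHA holds 5 matches at 3 places, HK2 holds 3, and ENO2, PFKFB4, KDM3A and ANGPTL4 hold 1 each. The window of the other HK2 start holds 4 matches of ACGTG and 2 of GCGTG. That of the other LDHA start holds 1 of GCGTG.

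In control cells the enzymes of lower glycolysis were the most abundant members. Per kilobase of merged exon length (GENCODE 29), GAPDH reached 7077 ± 504 normalized counts (SD, n = 3), ALDOA 3436 ± 148, PKM 2903 ± 72.2, ENO1 2275 ± 51.8, TPI1 1617 ± 99.6 and LDHA 1550 ± 38.2. TPI1, LDHA and the carbonic anhydrase CA12 (1405 ± 186) did not differ beyond their spread. Per kilobase the glucose carrier SLC2A1 stood at 885 and its relative SLC2A3 at 152, and ENO1 stood far above ENO2 at 16.9, whereas P4HA1 (227 ± 33.9) and P4HA2 (177 ± 7.70) lay closer together. CA9, a hallmark of VHL-deficient kidney carcinoma, was low in these cells at 9.18 ± 5.83, as were ANKRD37 at 4.44 and NDUFA4L2 at 1.40 ± 0.48. Pseudogenes or close relatives of GAPDH, LDHA, PGK1, TPI1, ENO1, PGAM1, PKM, ALDOA, BNIP3 and SLC2A3 could share reads with them, which makes their levels uncertain. Since normalization set the values by rank, GAPDH carried the same value, 19790, in all 3 siELOVL2 libraries, and PKM and GAPDH held only 5 and 7 distinct values over the 12 libraries.

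**Figure D2:**
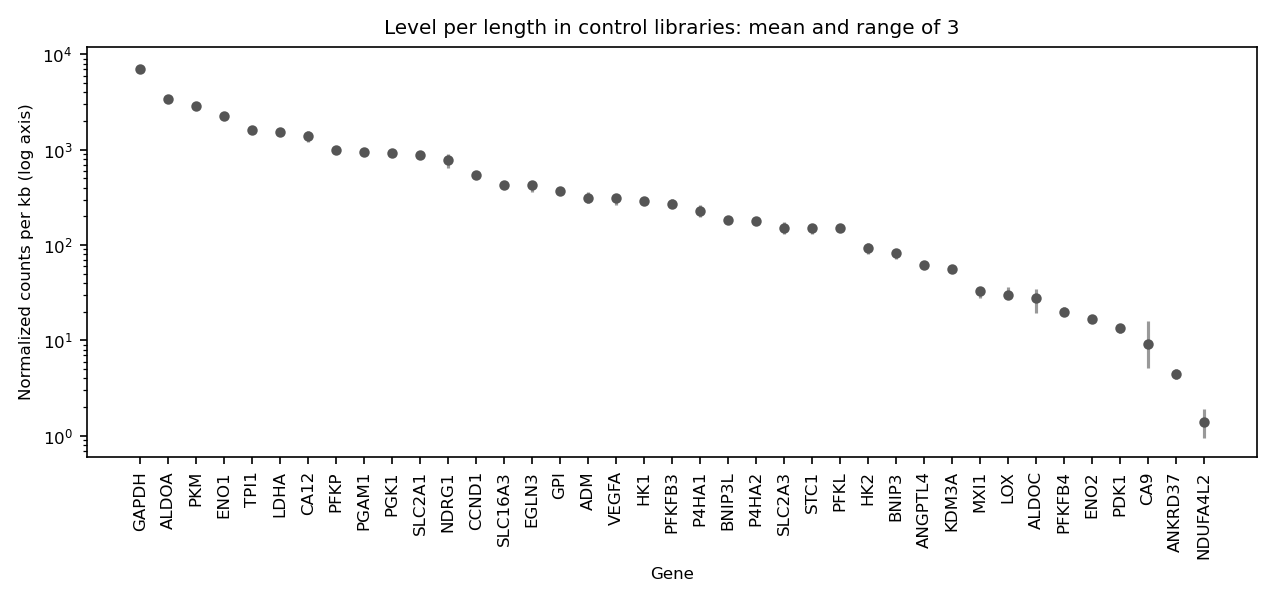
Points give the mean normalized count per kilobase of exon in the 3 control libraries and lines their range, on a log axis, for the 39 genes in order. GAPDH leads at 7077 and NDUFA4L2 closes the order at 1.40.

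Few of the 39 genes passed the test in any comparison, and all of those that did in a comparison with control were lower. Calls were made at an adjusted p below 0.05, from limma with Benjamini-Hochberg adjustment over all 18648 genes. After siELOVL2 1 of 39 was called, LDHA, which was lower, where 1.36% of all tested genes were called and 0.815% were lower. After both siRNAs 4 were called, SLC2A3, ENO2, LDHA and CCND1, all lower, where 4.42% of tested genes were called and 2.27% were lower. After siELOVL5 limma called 0 members, with 0.139% of tested genes called and 1 member, CCND1, at an unadjusted p below 0.05, as were 1783 of the 18648 tested genes. The median log2 fold change of the 39 genes was -0.09 after siELOVL2, -0.05 after siELOVL5 and -0.18 after both, against 0.02, 0.00 and 0.02 over all tested genes. These 3 comparisons share their control libraries. In bulk RNA, fewer cells expressing a gene and less RNA per cell cannot be told apart.

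The libraries of some genes separated without a call. All 3 siELOVL2 libraries lay below all 3 controls for 10 members and above them for 0, where 10.4% of tested genes separated downward and 12% upward. In the double knockdown the counts were 12 below and 0 above, against 11.4% and 13.4% of tested genes, and after siELOVL5 they were 2 below (LDHA and CCND1) and 0 above, against 7.04% and 6.07%. The 10 after siELOVL2 were SLC2A3, PFKFB4, PGAM1, ENO2, LDHA, P4HA2, KDM3A, LOX, NDRG1 and MXI1. The 12 in the double knockdown were SLC2A3, HK2, PFKFB4, PGAM1, ENO2, LDHA, PDK1, P4HA2, KDM3A, LOX, MXI1 and CCND1.

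Counts of calls moved with single libraries. After siELOVL2 the count was 0 when any control library, any siELOVL2 library or double-knockdown replicate 2 was left out, and 3 without siELOVL5 replicate 3 (LDHA, MXI1 and PFKFB4, with 4.45% of tested genes called). In the double knockdown it was 1 when any control library, siELOVL2 replicate 2 or double-knockdown replicate 1 or 2 was left out, and 2 when siELOVL2 replicate 1 or 3 or siELOVL5 replicate 2 was. Without siELOVL5 replicate 3, a library outside that comparison which enters its shared estimate of spread, it was 10, all lower: LDHA, SLC2A3, ENO2, CCND1, HK2, PFKFB4, PGAM1, PDK1, LOX and MXI1, with 9.52% of tested genes called. After siELOVL5 it stayed at 0 without that library, with 0.209% of tested genes called.

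**Figure D3:**
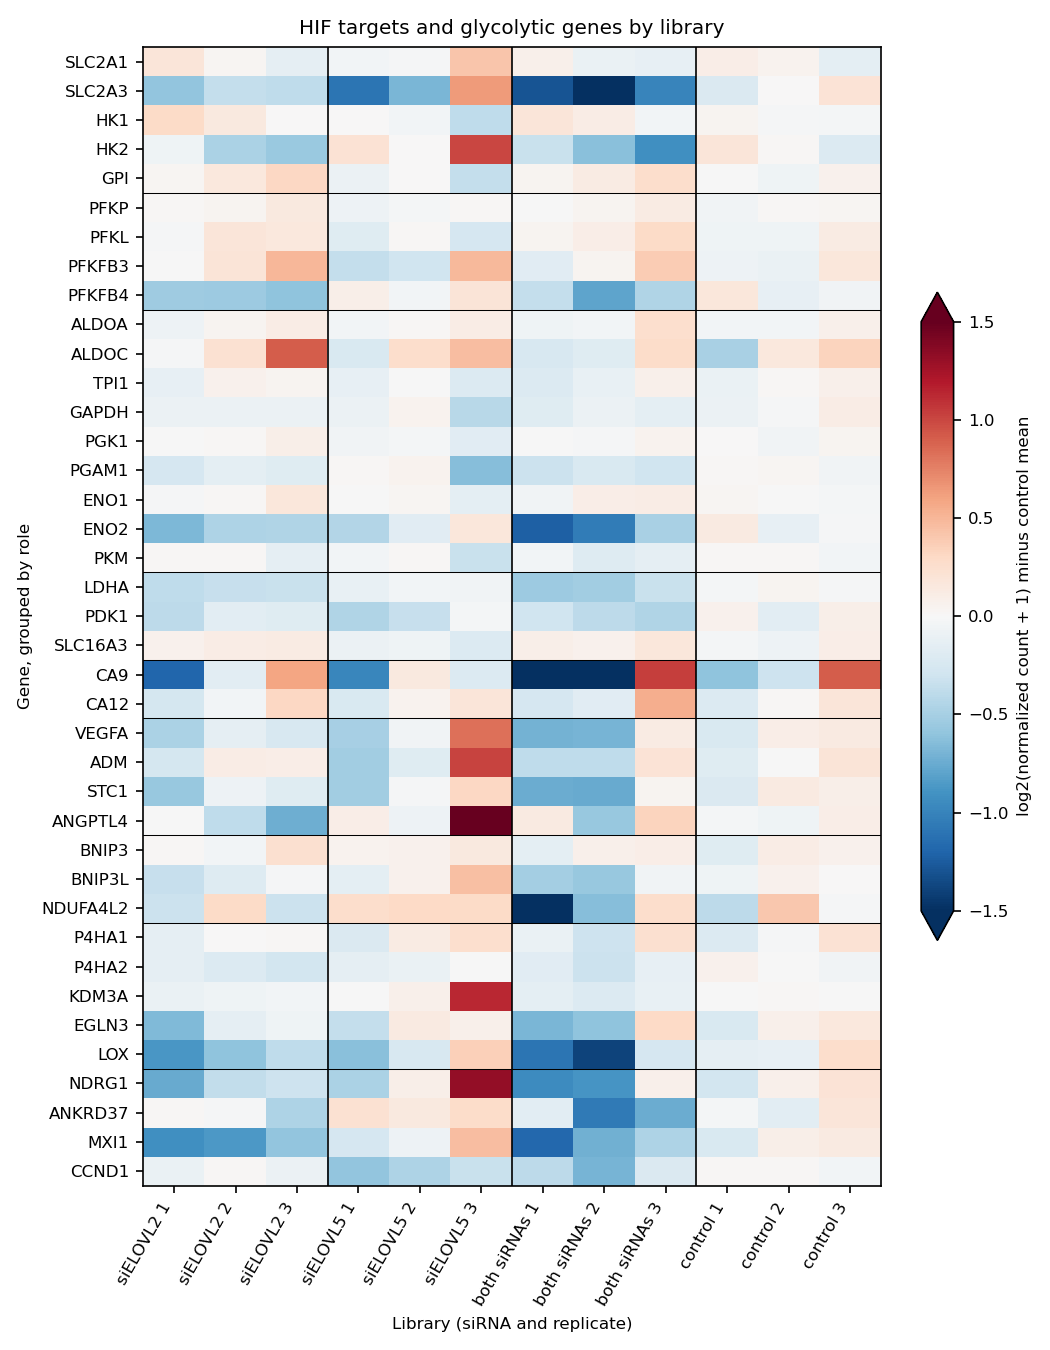
Colours give log2(normalized count + 1) minus the control mean for each gene (rows, grouped by role) in each of the 12 libraries (columns), with values beyond 1.5 in either direction shown in the end colours. The double-knockdown columns are blue for SLC2A3, ENO2 and MXI1, and the column of siELOVL5 replicate 3 is red for ANGPTL4, NDRG1, KDM3A, ADM and HK2.

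Glucose entry showed 1 call in the double knockdown, the carrier SLC2A3 (GLUT3). SLC2A3 held 617, 724 and 712 normalized counts in siELOVL2 replicates 1, 2 and 3, 432, 579 and 1445 in siELOVL5 replicates, and 377, 322 and 467 in the double knockdown, against 801, 929 and 1074 in control. The double-knockdown and siELOVL2 libraries all lay below every control, and the siELOVL5 libraries lay on both sides. SLC2A3 fell by 1.27 on the log2 scale in the double knockdown (SE 0.32, limma adjusted p = 0.0429), while its log2 fold change was -0.44 after siELOVL2 (adjusted p = 0.597) and -0.38 after siELOVL5 (adjusted p = 0.740, and -0.89 with adjusted p = 0.073 without siELOVL5 replicate 3). The call in the double knockdown was kept only without siELOVL5 replicate 1 or 3, and without any other library the adjusted p was 0.0536 to 0.146. SLC2A1 (GLUT1), the main carrier here, held between 3762 and 5554 normalized counts in all libraries, with log2 fold changes of 0.03, 0.12 (-0.03 without siELOVL5 replicate 3) and -0.05 after siELOVL2, siELOVL5 and both.

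Hexokinases phosphorylate glucose on entry. HK2, the inducible form, held 541, 405 and 382 normalized counts in the siELOVL2 libraries, 657, 565 and 1127 in the siELOVL5 libraries, and 446, 363 and 297 in the double knockdown, against 642, 570 and 490 in control. The double-knockdown libraries all lay below the controls, and below every siELOVL5 library too. Against control the log2 fold change of HK2 was -0.63 in the double knockdown (SE 0.23, limma adjusted p = 0.151, and 0.0307 without siELOVL5 replicate 3), -0.37 after siELOVL2 (adjusted p = 0.531) and 0.41 after siELOVL5 (adjusted p = 0.591), which was 0.11 without siELOVL5 replicate 3. HK1, the widely expressed form, had log2 fold changes of 0.15, -0.14 (-0.02 without siELOVL5 replicate 3) and 0.08 after siELOVL2, siELOVL5 and both. GPI, which interconverts hexose phosphates, held 4019, 4405 and 4879 normalized counts in the siELOVL2 libraries, 3713, 3941 and 3070 in the siELOVL5 libraries and 4058, 4284 and 4724 in the double knockdown, against 3935, 3777 and 4105 in control. Its groups overlapped with control and its log2 fold changes of 0.17, -0.15 (-0.04 without siELOVL5 replicate 3) and 0.14 were not called.

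At the phosphofructokinase step PFKFB4, a bifunctional enzyme that sets fructose 2,6-bisphosphate and with it the rate of the step, separated the siELOVL2-treated groups from the others. PFKFB4 held 83.5, 83.2 and 79.3 normalized counts in the siELOVL2 libraries, 129, 118 and 139 in the siELOVL5 libraries and 94.5, 69.8 and 88.3 in the double knockdown, against 137, 112 and 117 in control. Every library with siRNA against ELOVL2 lay below every library without it, as for LDHA, ENO2, KDM3A and MXI1. The share of all tested genes that separate in this way was not counted. Against control the log2 fold changes were -0.56 after siELOVL2 (SE 0.14, limma adjusted p = 0.0762) and -0.54 after both (SE 0.14, adjusted p = 0.053), neither of which was called, and they were called without siELOVL5 replicate 3 (0.0404 and 0.0296). After siELOVL5 it was 0.08 (adjusted p = 0.897). PFKFB3, its relative, held 1649, 1893 and 2345 normalized counts in the siELOVL2 libraries, 1295, 1349 and 2328 in the siELOVL5 libraries and 1477, 1707 and 2170 in the double knockdown, against 1571, 1554 and 1876 in control. All 3 groups overlapped with control, with log2 fold changes of 0.23, -0.06 (-0.33 without siELOVL5 replicate 3) and 0.09. PFKL held 1323, 1520 and 1491 in the siELOVL2 libraries, 1182, 1356 and 1126 in the siELOVL5 libraries and 1379, 1436 and 1640 in the double knockdown, against 1287, 1280 and 1465 in control. Its groups overlapped with control too (log2 fold change 0.14 after both, adjusted p = 0.475), and PFKP lay between 4600 and 5348 in all libraries.

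Of the 9 genes of the later steps, from aldolase to pyruvate kinase, ENO2 was the 1 called against control. Enolases form phosphoenolpyruvate, and ENO2 is the form typical of neurons. ENO2 held 44.8, 52.0 and 52.7 normalized counts in the siELOVL2 libraries, 53.0, 63.8 and 81.4 in the siELOVL5 libraries and 30.3, 34.4 and 51.0 in the double knockdown, against 79.3, 66.2 and 71.4 in control. The siELOVL2 and double-knockdown libraries all lay below every control. ENO2 fell by 0.92 on the log2 scale in the double knockdown (SE 0.22, limma adjusted p = 0.0313), and its log2 fold change was -0.53 after siELOVL2 (adjusted p = 0.291) and -0.15 after siELOVL5 (adjusted p = 0.870, and -0.31 without siELOVL5 replicate 3). The call did not survive leaving out any control library, siELOVL2 replicate 2, or double-knockdown replicate 1 or 2 (adjusted p = 0.0518 to 0.124). ENO1, the abundant form, had log2 fold changes of 0.06, -0.04 (0.02 without siELOVL5 replicate 3) and 0.05 after siELOVL2, siELOVL5 and both.

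The other abundant enzymes of these steps had small fold changes. The log2 fold changes of ALDOA, TPI1, GAPDH, PGK1, ENO1 and PKM against control lay between -0.15 and 0.06 in the 3 knockdown groups, and none was called. PGAM1, phosphoglycerate mutase, held 2061, 2225 and 2160 normalized counts in the siELOVL2 libraries, 2491, 2538 and 1577 in the siELOVL5 libraries and 1956, 2092 and 1990 in the double knockdown, against 2488, 2508 and 2370 in control. Its siELOVL2 and double-knockdown libraries lay below every control, with log2 fold changes of -0.19 (limma adjusted p = 0.597) and -0.29 (adjusted p = 0.294, and 0.00603 without siELOVL5 replicate 3). ALDOC, a low-abundance aldolase, held 79.0, 94.2 and 151 in the siELOVL2 libraries, 68.1, 96.8 and 110.4 in the siELOVL5 libraries and 67.9, 70.2 and 97.2 in the double knockdown, against 56.8, 89.2 and 101 in control. Its groups overlapped, and its highest log2 fold change was 0.37 after siELOVL2 (adjusted p = 0.611).

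LDHA, the dehydrogenase that turns pyruvate into lactate, fell in both groups that received siRNA against ELOVL2. It held 7377, 7594 and 7637 normalized counts in the siELOVL2 libraries, 8874, 9374 and 9248 in the siELOVL5 libraries and 6587, 6705 and 7637 in the double knockdown, against 9443, 9892 and 9535 in control. All libraries with siRNA against ELOVL2 lay below all those without it, and the siELOVL5 libraries lay just below the controls. LDHA fell by 0.47 on the log2 scale in the double knockdown (SE 0.07, limma adjusted p = 0.00331) and by 0.35 after siELOVL2 (SE 0.07, adjusted p = 0.0312), and had a log2 fold change of -0.07 after siELOVL5 (adjusted p = 0.798). The call in the double knockdown was kept without any 1 of the 12 libraries. The call after siELOVL2 did not survive leaving out any control library, any siELOVL2 library or double-knockdown replicate 2 (adjusted p = 0.0543 to 0.165).

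PDK1, the kinase that restrains pyruvate dehydrogenase, held 162, 153 and 146 normalized counts in the double knockdown, against 210, 179.8 and 214 in control, without overlap. Its log2 fold change was -0.38 there (SE 0.13, limma adjusted p = 0.120, and 0.0394 without siELOVL5 replicate 3). After siELOVL2 and siELOVL5 it was -0.24 and -0.28, with overlap (limma adjusted p = 0.449 and 0.528). Without siELOVL5 replicate 3 the log2 fold change of PDK1 after siELOVL5 was -0.40 (limma adjusted p = 0.352). SLC16A3 (MCT4), which exports lactate, held 3965, 4112 and 4154 in the siELOVL2 libraries, 3586, 3635 and 3304 in the siELOVL5 libraries and 4033, 3971 and 4284 in the double knockdown, against 3739, 3620 and 4058 in control. All groups overlapped with control and its log2 fold change of 0.11 in the double knockdown was not called (adjusted p = 0.453).

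**Figure D4:**
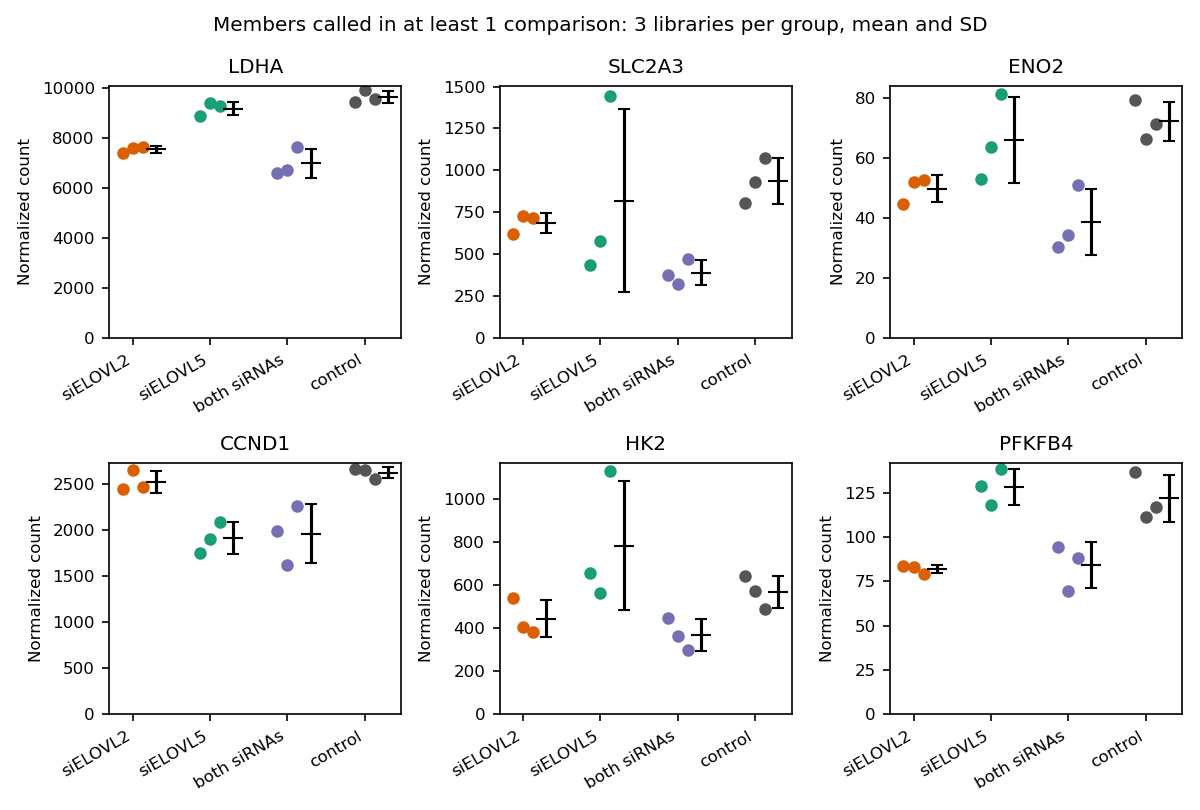
Normalized counts (linear axes from 0) of the 6 members called in at least 1 comparison, with 1 point per library and a bar for the mean and SD of each group of 3. LDHA and PFKFB4 lie lower in both groups that received the ELOVL2 siRNA, CCND1 in both that received the ELOVL5 siRNA, and siELOVL5 replicate 3 is the high point for SLC2A3 (1445) and HK2 (1127).

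The carbonic anhydrases, which hydrate carbon dioxide and buffer pH, gave no call. CA9 held 5.42, 12.2 and 21.2 normalized counts in the siELOVL2 libraries, 6.42, 15.2 and 11.8 in the siELOVL5 libraries and 2.08, 3.92 and 29.1 in the double knockdown, against 8.67, 10.8 and 26.5 in control. Its groups overlapped fully, and with a standard error of 0.75 on the log2 scale a change of 2-fold could not be told from none. CA12 lay between 8512 and 14903 normalized counts in all libraries, with log2 fold changes of 0.00, 0.00 (-0.09 without siELOVL5 replicate 3) and 0.04.

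Among the secreted factors VEGFA, ADM, the glycoprotein hormone gene STC1 and ANGPTL4, 0 of 4 were called in any comparison with control. VEGFA held 3180, 4047 and 3762 normalized counts in the siELOVL2 libraries, 3149, 4284 and 7833 in the siELOVL5 libraries and 2702, 2741 and 4844 in the double knockdown, against 3777, 4746 and 4863 in control. The groups overlapped, with log2 fold changes of -0.28, 0.09 (-0.27 without siELOVL5 replicate 3) and -0.43. ANGPTL4 held 155, 119 and 93.1 in the siELOVL2 libraries, 167, 147 and 750 in the siELOVL5 libraries and 170, 104 and 196 in the double knockdown, against 152, 148 and 165 in control. Its log2 fold change after siELOVL5, 0.77 (SE 0.47, limma adjusted p = 0.624), was the highest of any member there and was 0.02 without siELOVL5 replicate 3. For ADM the log2 fold changes were -0.02, 0.10 and -0.18 after siELOVL2, siELOVL5 and both, and for STC1 -0.27, -0.07 and -0.49. Without siELOVL5 replicate 3 those after siELOVL5 were -0.35 for ADM and -0.27 for STC1.

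Of the mitochondrial proteins, BNIP3 and BNIP3L are receptors for mitochondrial clearance and NDUFA4L2 is a hypoxia-induced relative of a cytochrome oxidase subunit. BNIP3 had log2 fold changes between 0.01 and 0.09 against control. BNIP3L held 549, 524 and 754 normalized counts in the double knockdown, against 744, 814.5 and 785 in control, with an overlap through replicate 3 (log2 fold change -0.38, limma adjusted p = 0.218). NDUFA4L2 lay at 5.33 normalized counts or fewer in all libraries and at 0 in double-knockdown replicate 1, too low for a difference to be read.

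The dioxygenases and the collagen crosslinking enzyme gave no call, but several separated from control. P4HA2, a collagen prolyl hydroxylase subunit, had log2 fold changes of -0.21 after siELOVL2 and -0.21 after both (limma adjusted p = 0.220 and 0.150), each without overlap with control, while P4HA1 stood at -0.04 and -0.06. LOX, which crosslinks collagen, held 90.2, 109 and 128 normalized counts in the siELOVL2 libraries, 108, 141 and 215 in the siELOVL5 libraries and 77.8, 63.2 and 139.7 in the double knockdown, against 151, 153 and 200 in control. All siELOVL2 and double-knockdown libraries lay below the controls, with log2 fold changes of -0.62 (SE 0.29, adjusted p = 0.367) and -0.91 (SE 0.29, adjusted p = 0.0976, and 0.0438 without siELOVL5 replicate 3). KDM3A held 698, 714 and 726 in the siELOVL2 libraries, 745, 789.5 and 1645 in the siELOVL5 libraries and 677, 649 and 696 in the double knockdown, against 745, 755 and 747 in control. Its siELOVL2 and double-knockdown libraries lay narrowly below the controls (log2 fold changes -0.07 and -0.15), and its log2 fold change after siELOVL5 was 0.40 (adjusted p = 0.579) and 0.03 without siELOVL5 replicate 3. The prolyl hydroxylase EGLN3 overlapped with control in each group, at -0.29, -0.05 (-0.11 without siELOVL5 replicate 3) and -0.33.

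Among the remaining targets CCND1, cyclin D1, was lower in both groups that received siRNA against ELOVL5. CCND1 held 2441, 2655 and 2471 normalized counts in the siELOVL2 libraries, 1745, 1901 and 2086 in the siELOVL5 libraries and 1994, 1620 and 2257 in the double knockdown, against 2659, 2652 and 2556 in control. The siELOVL5 and double-knockdown libraries lay below every control, and the siELOVL2 libraries did not separate from control. CCND1 fell by 0.44 on the log2 scale in the double knockdown (SE 0.11, limma adjusted p = 0.0373), while its log2 fold change of -0.46 after siELOVL5 was not called (SE 0.11, adjusted p = 0.160), nor was that of -0.06 after siELOVL2 (adjusted p = 0.867). The call was kept only without siELOVL5 replicate 1 or 3 or double-knockdown replicate 3, and the adjusted p was 0.0522 to 0.128 without any other library.

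MXI1, an antagonist of MYC, had the lowest log2 fold change of any member after siELOVL2. It held 78.6, 81.9 and 98.6 normalized counts in the siELOVL2 libraries, 126, 142 and 206 in the siELOVL5 libraries and 65.2, 90 and 108 in the double knockdown, against 127, 159 and 165 in control. All libraries with siRNA against ELOVL2 lay below all those without it, yet neither log2 fold change was called, at -0.79 after siELOVL2 (SE 0.21, limma adjusted p = 0.0936, and 0.0305 without siELOVL5 replicate 3) and -0.79 after both (SE 0.21, adjusted p = 0.0545, and 0.0172 without that library). NDRG1 held 4512, 5929 and 6161 normalized counts in the siELOVL2 libraries, 5498, 8146 and 19085 in the siELOVL5 libraries and 3958, 4154 and 8040 in the double knockdown, against 6319, 8040 and 8786 in control. Only its siELOVL2 libraries separated from control, and its log2 fold changes of -0.48, 0.31 and -0.59 were not called. The value after siELOVL5 was -0.19 without siELOVL5 replicate 3. ANKRD37, an ankyrin repeat gene, lay between 4.92 and 14 normalized counts in all libraries, with a log2 fold change of -0.66 in the double knockdown (adjusted p = 0.272).

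**Figure D5:**
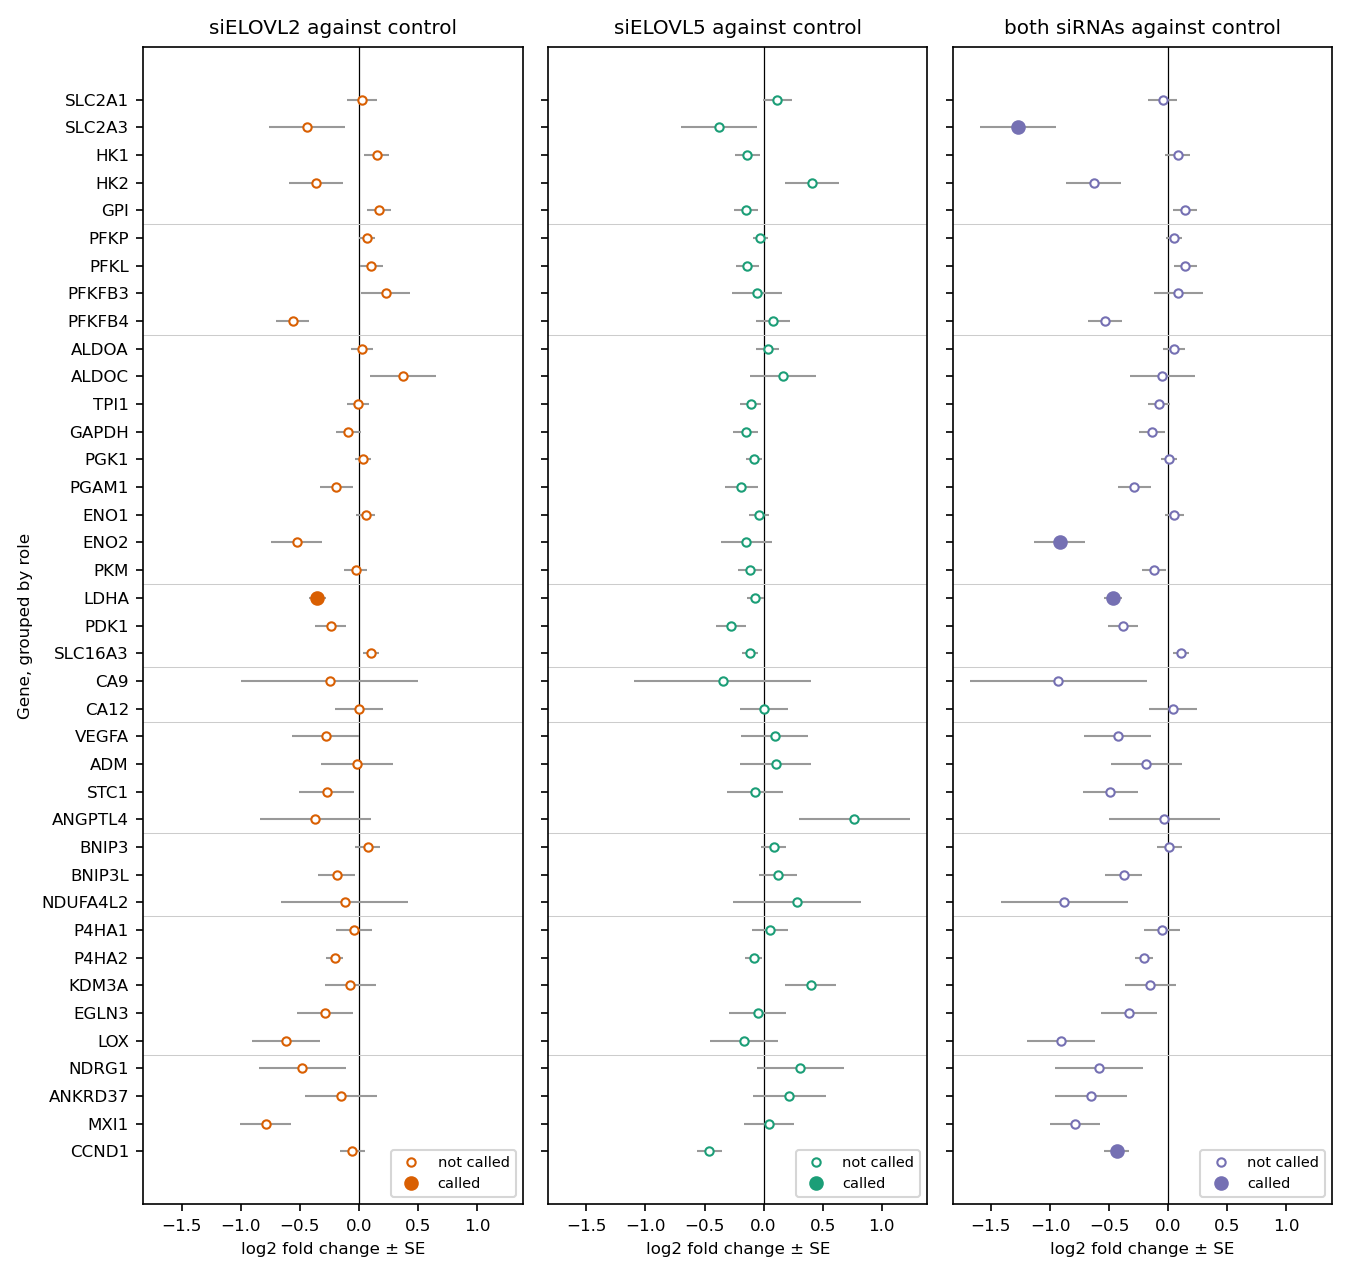
Points give the log2 fold change on the log2(normalized count + 1) scale against control, with lines for ± 1 SE, of the 39 genes after siELOVL2, siELOVL5 and both siRNAs. Filled points are called: LDHA after siELOVL2 (-0.35), none after siELOVL5, and SLC2A3 (-1.27), ENO2 (-0.92), LDHA (-0.47) and CCND1 (-0.44) after both.

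The knockdowns were also compared with each other. The double knockdown against siELOVL5 asks what lowering ELOVL2 adds, and 3 members were called, all lower, where 2.77% of tested genes were called and 1.41% were lower. HK2 fell by 1.04 on the log2 scale (SE 0.23, limma adjusted p = 0.0321, and by 0.74 without siELOVL5 replicate 3), PFKFB4 by 0.61 (SE 0.14, adjusted p = 0.0392) and LDHA by 0.40 (SE 0.07, adjusted p = 0.0136). The median over the 39 genes was -0.16, against 0.02 over all tested genes, and without siELOVL5 replicate 3 it was -0.08 against 0.01. Without siELOVL5 replicate 3 the 3 called were HK2, LDHA and PGAM1, with 4.24% of tested genes called, and the adjusted p of PFKFB4 was 0.0649. HK2 lost its call without siELOVL5 replicate 1, control replicate 2, siELOVL2 replicate 2 or any double-knockdown library (adjusted p = 0.0523 to 0.104), LDHA without double-knockdown replicate 1 or 2 (0.0645 and 0.0714), and PFKFB4 without any library but control replicate 1 (0.0543 to 0.142). The count was 0 without double-knockdown replicate 1 or 2 and 1 without control replicate 2, siELOVL2 replicate 2 or siELOVL5 replicate 1.

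Between the single knockdowns PFKFB4 was the 1 member called, where 3.01% of tested genes were called and 1.46% were higher. PFKFB4 was higher by 0.64 on the log2 scale in siELOVL5 than in siELOVL2 cells (SE 0.14, limma adjusted p = 0.032). MXI1 and LDHA were next, at 0.84 and 0.28, and were not called (adjusted p = 0.0533 and 0.0563). CCND1 ran the other way at -0.40 (adjusted p = 0.0609). The call of PFKFB4 needed every siELOVL2 library and siELOVL5 replicates 1 and 3, with an adjusted p without 1 of them of 0.0576 to 0.118. Without siELOVL5 replicate 3 the 1 call was CCND1, lower in siELOVL5 cells at -0.47 (adjusted p = 0.037), with 3.79% of tested genes called. The count was 0 without siELOVL5 replicate 1 or any siELOVL2 library, 2 without double-knockdown replicate 1 or 2, and 4 without double-knockdown replicate 3.

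The double knockdown against siELOVL2, which asks what lowering ELOVL5 adds, gave 0 calls by limma among the members, with 0.059% of tested genes called. CCND1 (-0.38) and SLC2A3 (-0.83) had an unadjusted p below 0.05 there, as did 672 tested genes, and the count was 0 also without siELOVL5 replicate 3, with 0.0858% of tested genes called. The interaction, which tests whether the double knockdown departs from the sum of the single ones on the log2 scale, gave 0 calls by limma, with 0% of tested genes called. An unadjusted p below 0.05 was reached by 0 members and 522 tested genes. HK2, with an interaction of -0.67 (SE 0.33, unadjusted p = 0.0594), had the lowest unadjusted p of the 39.

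The pathway was also followed in 88 further genes, 37 for carbohydrate enzymes and carriers and 51 reported as HIF targets, of which 86 were tested. These lists too were chosen with earlier results of these data known, so their counts are not independent of the data. After siELOVL2 2 were called higher and 3 lower, after siELOVL5 0 by limma (9 at an unadjusted p below 0.05, as were 1783 of all 18648 tested genes), and in the double knockdown 3 higher and 5 lower, where 1.36%, 0.139% and 4.42% of all tested genes were called in either direction. The 50 tested HIF targets had median log2 fold changes of -0.11, 0.00 and -0.13 after siELOVL2, siELOVL5 and both, and the 36 carbohydrate genes 0.07, -0.05 and 0.07. EGLN1 (PHD2), the main prolyl hydroxylase that marks HIF-alpha, averaged 824 ± 74.7 normalized counts in siELOVL2 cells, 1297 ± 44.7 in siELOVL5 cells and 756 ± 29.5 in the double knockdown, against 1260 ± 33.7 in control (SD, n = 3 each). It fell by 0.62 on the log2 scale after siELOVL2 (limma adjusted p = 0.00149) and by 0.74 after both (adjusted p = 0.000196). SLC16A1 (MCT1), the lactate carrier of wide expression, averaged 751 ± 65.0, 1297 ± 51.0 and 699.9 ± 116.8 in the same knockdown groups, against 1275 ± 35.3 in control. It fell by 0.77 after siELOVL2 (adjusted p = 0.003) and by 0.88 after both (adjusted p = 0.000579), whereas the exporter SLC16A3 was not called.

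TGFA, a ligand of the EGF receptor, averaged 2608 ± 288 normalized counts in siELOVL2 cells, 3454 ± 652 in siELOVL5 cells and 1899 ± 260.0 in the double knockdown, against 4232 ± 440 in control (SD, n = 3 each). It fell by 0.70 on the log2 scale after siELOVL2 (limma adjusted p = 0.0282) and by 1.16 after both (adjusted p = 0.000572). The histone demethylase KDM4B rose by 0.43 after siELOVL2 (adjusted p = 0.0231) and by 0.47 after both (adjusted p = 0.00563). After siELOVL2 TGFA lost its call when any siELOVL2 library or control replicate 1 or 2 was left out (adjusted p = 0.0632 to 0.134), and KDM4B when any control or siELOVL2 library was (0.0538 to 0.124). EGLN1 and SLC16A1 kept their calls in both comparisons without any 1 library. Other genes called higher were SLC16A7 after siELOVL2 and KDM4C and KDM5B after both, and the others called lower after both were PGF and PLOD2. PGF averaged 4.44 normalized counts in control and 0 in the double knockdown, so few reads limit its call. PLOD2 had log2 fold changes of -0.02 after siELOVL2, -0.74 after siELOVL5 (limma adjusted p = 0.0751, not called) and -0.69 after both (adjusted p = 0.0156).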

How the data were processed

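The deposited table gives signal values for 57773 genes in 12 libraries and is labelled normalized by the authors. Every column holds the same set of values, all multiples of 1/12, which is the mark of quantile normalization. Genes carry the table's own symbols. The aligner was not given in the sources used here, nor were the counter and the genome build. Because the deposited signal values are not raw counts, log2(value + 1) was analysed with limma 3.58.1 in R 4.3.3, with an intensity trend and 4 group means fitted to all libraries (8 residual degrees of freedom). The 7 comparisons were adjusted separately by Benjamini-Hochberg over 18648 genes. Fold changes on this scale understate those of low genes. Depth was estimated from the table order of genes tied at low counts, and its precision limits the low genes only. The model and the depth estimate were checked on simulated data. The simulated libraries were independent and none was set apart, so these checks do not cover the differences between replicates seen here.

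Per-kilobase levels used merged exons of GENCODE 29, and promoter windows came from RefSeq (GRCh38.p14). The members and lists were chosen with earlier results of these data known. Values in every library are given for members called in any comparison and for the 3 highest and 3 lowest fold changes of each knockdown, and paralogs among the members are described beside each other, some by ranges or fold changes. NDRG1, VEGFA, PGAM1, PDK1 and BNIP3L were added after their values were seen. Of the 88 further genes, up to 4 called with the smallest adjusted p are given with values per comparison with control. Alternatives were another library scaling, a pseudocount of 0.5, no filter on low values, the replicate number as a block, no intensity trend, only the groups compared, and each library left out. 1 marker gene of the list is not reported here.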

Additional observations from a re-analysis of the deposited data

How the results depend on the processing

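Results were recomputed under 6 other settings and without each library in turn. Counts of members called are given with the main value after it. With replicate number as a replicate block, 3 were called after siELOVL2 (1), 8 after both (4), 9 for both against siELOVL5 (3) and 6 for siELOVL5 against siELOVL2 (1), and genes called numbered 861 (254), 99 after siELOVL5 (26), 1866 (825), 1368 (516) and 1317 (562). The labels do not say whether equal numbers mark paired libraries. Of same-number pairs of deviations 9 of 18 correlated above 0.1 (range -0.00 to 0.21), against 0 of 36 different-number pairs (-0.215 to 0.064). In all, 10 of 12 libraries correlated best with their own number, a hint from the data and not the design. The main fit does not take these numbers into account. The block added MXI1 and PFKFB4 after siELOVL2, MXI1, PFKFB4, LOX and BNIP3L after both, BNIP3L, ENO2, LOX, MXI1, NDRG1 and SLC2A3 for both against siELOVL5, and CCND1, HK1, LDHA, MXI1 and NDRG1 for siELOVL5 against siELOVL2. Without the intensity trend members called were 0, 1, 0 and 0 in the same order, and genes called were 101 after siELOVL2, 413 after both, 21 for both against siELOVL2 (11), 200 for both against siELOVL5, 213 for siELOVL5 against siELOVL2 and 9 for the interaction (0). Fitting only the groups compared gave 2 members after siELOVL2, 0 for both against siELOVL5 and 0 for siELOVL5 against siELOVL2, and 412, 1 after siELOVL5, 1 for both against siELOVL2, 21 and 49 genes. Without the filter 0 members were called after siELOVL2 and 2 after both, and with median-ratio scaling 2 for siELOVL5 against siELOVL2. Without 1 library, members called ranged from 0 to 3 after siELOVL2, 1 to 10 after both, 0 to 4 for both against siELOVL5 and 0 to 4 for siELOVL5 against siELOVL2, and stayed at 0 elsewhere. Genes called then ranged from 63 to 829, 9 to 39 after siELOVL5, 325 to 1775, 2 to 16, 154 to 791 and 165 to 707, and 0 for the interaction. The log2 fold change of CA9 after siELOVL5 (-0.35) ranged from -0.65 to 0.11 without 1 library and was above 0 without control replicate 3. The causes were not tested. Scaling moved the median of all genes by at most 0.02 on the log2 scale. Differences in CA9, ANKRD37 and NDUFA4L2 are limited by their few reads.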
